A study of Mus musculus with 20 samples.

Results

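The comparison is between bone marrow cells taken from mice 24 hours after total body irradiation and those of mice that were not irradiated, described across all genes on the array. It sets 10 of the 20 arrays of the series against each other, 5 for each group, chosen by the time point in the labels. The model behind the changes was fitted to all 20 arrays, so its standard errors draw on the spread within all 4 groups. All mice were adults of the C57/Bl6 strain aged 8 to 10 weeks, and the labels give the cells of every array as endothelial cells of the bone marrow that carry VE-cadherin, the adhesion protein encoded by Cdh5. The irradiated group received 5 Gy to the whole body. The rest of the series holds 5 arrays taken 6 hours and 5 taken 14 days after the same dose, and the 6-hour arrays serve here to show where the 24-hour level differed from the earlier level. Replicates within a group are described as biological, without a statement of whether each was 1 animal or a pool, so the p-values measure the spread between samples. For the model that is the spread within every group of the series.

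Bone marrow vessels, most of them wide sinusoids, carry blood out of the marrow and, with the pericytes and reticular stromal cells around them, supply growth factors and chemokines to stem and progenitor cells. Ionizing radiation breaks DNA, which activates the transcription factor p53 and halts the cell cycle, and dividing red cell and B-cell precursors of the marrow are lost within days of such a dose. Nucleic acid that reaches the cytosol of a damaged or engulfing cell can trigger interferon production, and interferon acts through STAT and IRF factors on a large set of antiviral genes.

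Signals are linear Affymetrix intensities after the authors' scaling, with the brightest probe set of each gene taken. A change is the log2 difference between the group means, given with the standard error of the limma model, and a gene is said to have risen or fallen when its Benjamini-Hochberg adjusted p over 18193 genes was under 0.05. At 24 hours 2861 genes had risen (15.7%) and 2513 had fallen (13.8%). Of these, 1464 rose (8.05%) and 1338 fell (7.35%) at least 2-fold, and at 8-fold or more the falls outnumbered the rises by 111 to 37. The groups did not overlap in many genes, with the irradiated arrays higher in 2741 (15.1%) and lower in 2354 (12.9%). This balance rests on the authors' scaling, which sets the trimmed mean of every array to 500. The median array signal was 177 ± 10.1 (SD, n = 5) without irradiation and 135 ± 5.17 at 24 hours (exact permutation test, two-sided, p = 0.00794, the smallest that 5 against 5 arrays can give). With each array centred on its median, 4950 genes rose and 1139 fell, and the median change over all genes moved from -0.073 to 0.31. The histogram of changes shows that shift, and small changes below are to be read against it. Counts of list members below are to be read against the 15.7% of all genes that rose and 13.8% that fell. Against 6 hours, 13.7% of all genes were higher and 10.1% lower.

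**Figure D1:**
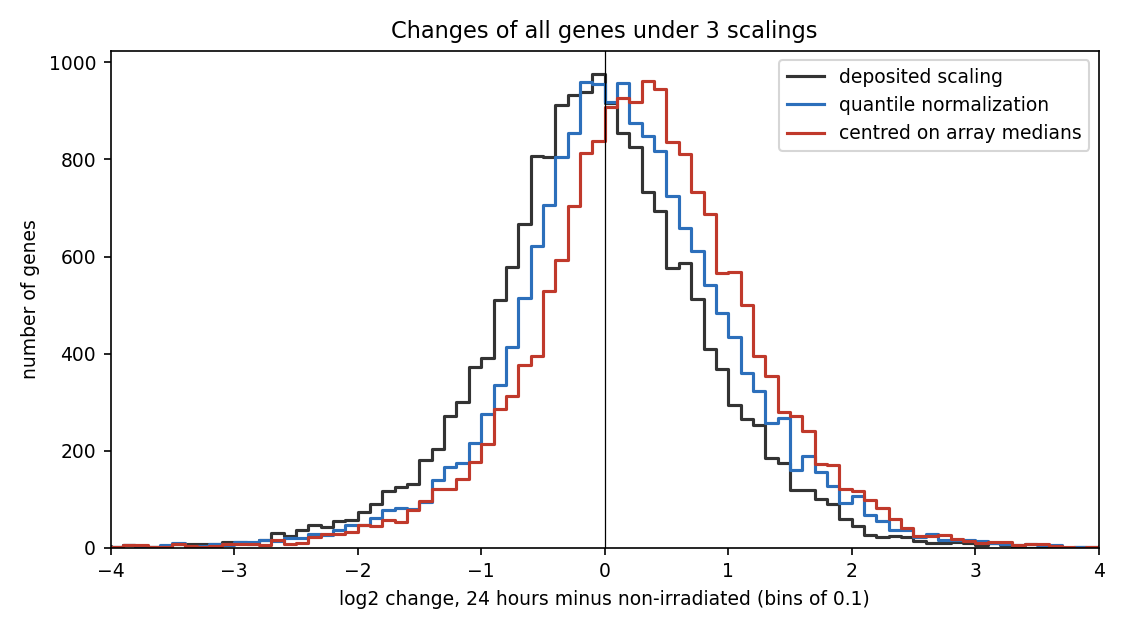
Number of genes (y axis) in bins of 0.1 of the log2 change from non-irradiated to 24 hours (x axis, cropped at 4 in each direction) under the deposited scaling, after quantile normalization and after centring each array on its median. The curves have the same shape and are displaced, with medians over all genes of -0.073, 0.13 and 0.31.

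The arrays held the markers of their labelled cell type together with those of other marrow cells. Without irradiation the mean signal of Cdh5 was 3186 ± 494 (SD, n = 5), and each of the 35 pan-endothelial markers listed was above the array background in at least 1 array of the comparison. That bar is low, since a mean of 81.2% of all genes passed it in non-irradiated arrays and 80.3% at 24 hours. The non-irradiated arrays had a mean of 5693 ± 288 for Klf1, the master factor of red cell development, 4785 ± 417 for Ptprc, the CD45 antigen of leukocytes, 30215 ± 1930 for S100a8, a granulocyte protein, and 23234 ± 1337 for Col1a1, the collagen of bone and stroma. In such bulk RNA fewer cells of a type and less RNA per cell cannot be told apart. Arrays of the 24-hour group resembled each other (median correlation across genes 0.954) more than arrays of the 2 groups did (0.907). Unequal quality was measured as well. The bacterial hybridization controls were lower at 24 hours (mean log2 signal 12.17 ± 0.16 against 12.77 ± 0.084, exact permutation p = 0.00794), and the excess of 3′ over 5′ Gapdh signal was smaller (log2 0.77 ± 0.056 against 1.33 ± 0.04, exact permutation p = 0.00794). The part of these array values in the results was not tested.

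Genes that respond to interferon rose as a group. Of 44 type I interferon-stimulated antiviral genes measured, 34 rose and 1 fell, with a median change of 1.14, where 15.7% of all genes rose and 13.8% fell with a median of -0.073. Of 10 interferon-induced GTPases 9 rose and none fell, with a median of 1.85. Against 6 hours, 31 and 9 members were higher at 24 hours and none was lower, where 13.7% of all genes were higher and 10.1% lower. The antiviral list, its GTPases and the other lists were drawn up with earlier results of these data known, so their direction is not independent evidence.

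Ifit1, which binds viral RNA that lacks the cap of the host, had signals of 168, 302, 555, 454 and 255 in the non-irradiated arrays and 6304, 6086, 6889, 6266 and 5966 at 24 hours. Every irradiated array was above every control array, and the change was among the 10 largest rises of the data (4.30 ± 0.22, adjusted p = 8.56e-14). At 6 hours the signals of Ifit1 were 1488, 1766, 1862, 2177 and 1149, between the levels of the other groups, and the 24-hour level was higher (1.93 ± 0.22, adjusted p = 2.93e-07). Bst2, the tetherin that holds virus particles at the cell surface, stood at 602, 599.9, 519.5, 761 and 687 without irradiation and at 4175, 4661, 4953, 4580 and 4648 after it. The arrays of Bst2 were tightly grouped on each side of a wide gap (2.87 ± 0.12, adjusted p = 2.34e-15). Usp18, which removes ISG15 from proteins and restrains the interferon receptor, read 115 to 313 in controls and 1578 to 1774 at 24 hours (2.94 ± 0.27, adjusted p = 2.31e-09). At 6 hours Usp18 overlapped its controls (386, 328, 299.7, 170.4 and 150) and was lower than at 24 hours (2.74 ± 0.27, adjusted p = 2e-08). Ifit3 (3.27 ± 0.22), Oasl2 (3.03 ± 0.17) and Zbp1, a sensor of left-handed nucleic acid that can start necroptosis (2.89 ± 0.28), rose with no overlap between the groups. Mx2, a dynamin-like antiviral GTPase, was at or below background in all 5 control arrays and reached 118 to 239.7 at 24 hours, a level at least 5.13-fold above that background. The related Mx1 did not pass the test (0.18 ± 0.63, adjusted p = 0.868). Isg20, an exonuclease that degrades viral RNA, was the member that fell, from 2802, 2527, 3022, 2726 and 2740 to 682, 596, 534, 694 and 476, with no overlap (-2.22 ± 0.23, adjusted p = 1.8e-08).

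The interferon-induced GTPases, which assemble on vacuoles that hold microbes, rose with much the same size, apart from Gbp7. Gbp3 had control signals of 367, 408, 323, 291 and 462 and 24-hour signals of 2136, 1748, 2339, 2132 and 2124, which did not overlap (2.51 ± 0.22, adjusted p = 1.7e-09), as in 15.1% of all genes that lay wholly above and 12.9% wholly below. Irgm2, a regulator of the family, went from 809.8, 592, 793, 799.8 and 874 to 3364, 3197, 3255, 3011 and 3017, again without overlap (2.04 ± 0.12, adjusted p = 1.13e-12). Gbp7 moved least of the 9 that rose (0.78 ± 0.15), and Gbp8 did not pass the test (-1.10 ± 0.85, adjusted p = 0.37).

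The promoters of several of these genes are shown because the genes moved together. An interferon-stimulated response element was searched as GAAANNGAAA on both strands in the 250 bases before each RefSeq transcription start, where overlapping matches were each counted. It was found for 11 of 31 antiviral genes and 6 of 7 GTPases with a window, against 3.46% of all 27025 genes with one and 3.13% of those tested here. Genes already known to respond to interferon made up both lists, so a high share there is no finding of these data. Among genes that rose at 24 hours the share was 4.04%, and among those that fell it was 2.92%. Each run below gives 80 bases, 5′ to 3′ on the strand of the gene, from RefSeq on build GRCm38.p6, with the matches in capitals.
Ifit1, chr19:34640759-34640838, plus strand: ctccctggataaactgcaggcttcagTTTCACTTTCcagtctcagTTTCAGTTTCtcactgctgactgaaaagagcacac
Ifit3, chr19:34583359-34583438, plus strand: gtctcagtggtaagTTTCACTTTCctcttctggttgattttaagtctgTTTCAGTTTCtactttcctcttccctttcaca
Bst2, chr8:71537543-71537622, minus strand: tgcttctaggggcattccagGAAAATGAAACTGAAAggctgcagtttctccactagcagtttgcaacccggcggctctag
Gbp3, chr3:142559964-142560043, plus strand: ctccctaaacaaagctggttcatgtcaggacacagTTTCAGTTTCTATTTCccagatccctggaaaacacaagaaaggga
Irgm2, chr11:58214887-58214966, plus strand: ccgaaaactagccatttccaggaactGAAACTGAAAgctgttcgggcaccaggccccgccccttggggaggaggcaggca
Ifit1 and Ifit3, neighbours on the same chromosome, each held a pair of separate matches, whereas the matches of Bst2 and of Gbp3 overlapped. A match describes the letters of the window and does not show that a factor was bound there.

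**Figure D2:**
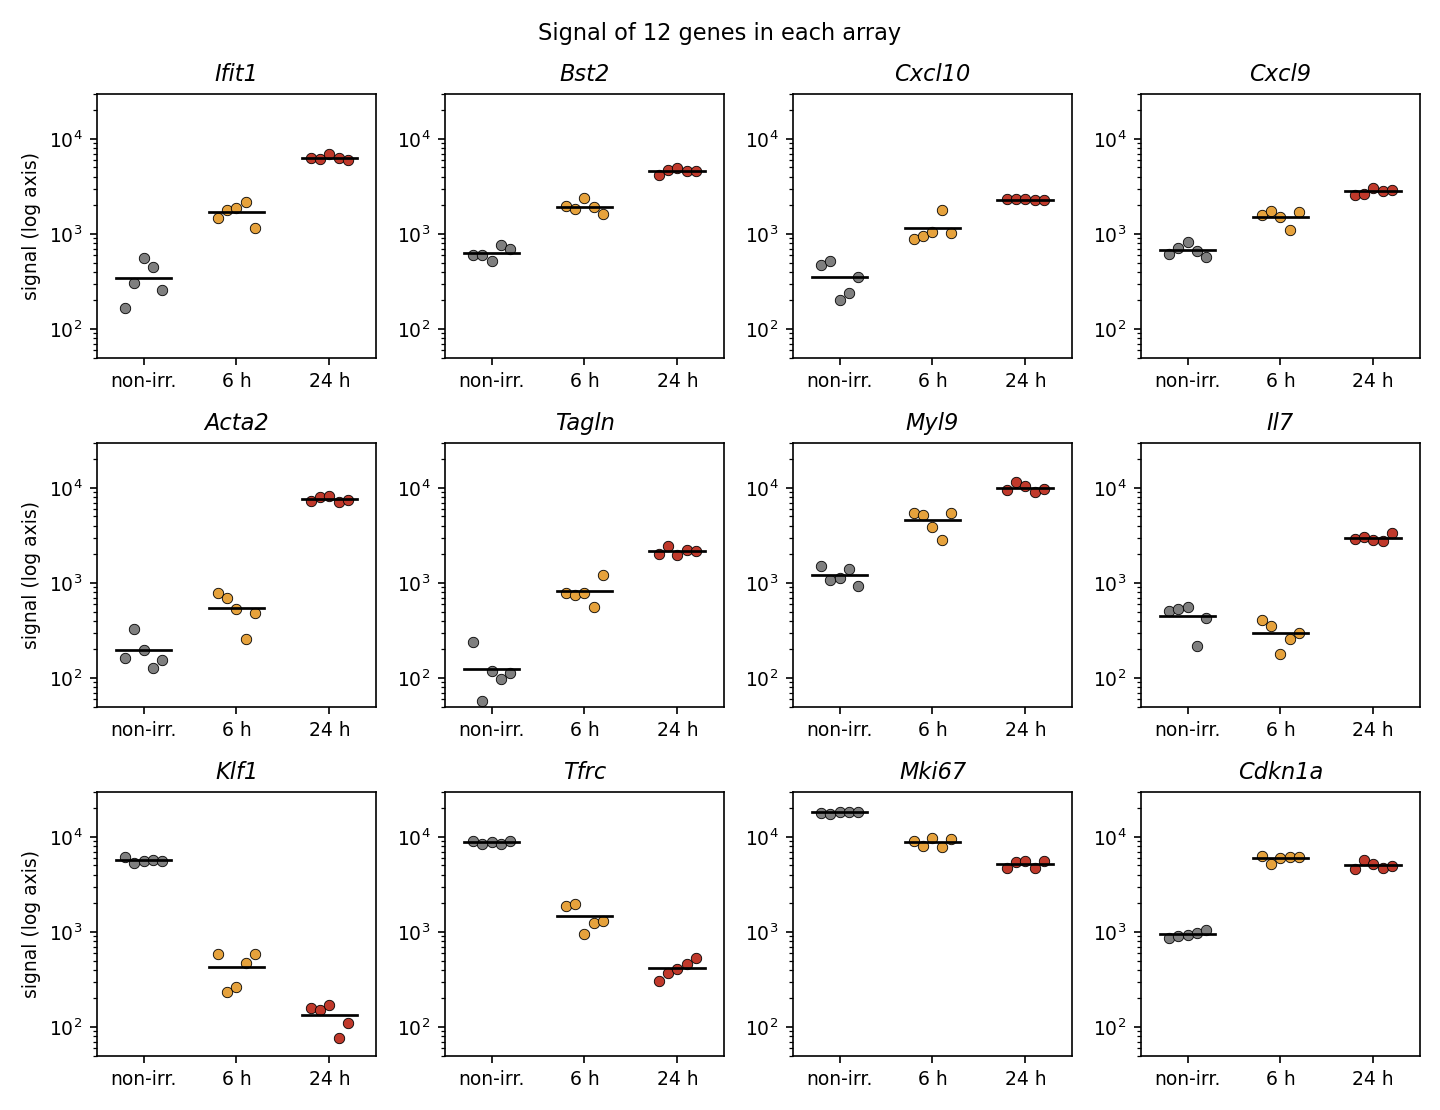
Signal of 12 genes in each of the 5 non-irradiated, 5 6-hour and 5 24-hour arrays on a log axis, with each point an array and each bar a group mean. In the top row and in Acta2, Tagln, Myl9 and Il7 all 24-hour arrays lie above all non-irradiated arrays, and in Klf1, Tfrc and Mki67 all lie below.

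Upstream of these effectors, the ligand genes Ifnb1 and Ifng had low signals and neither passed the test. Ifnb1 read 8.29, 4.39, 2.65, 8.32 and 4.37 in the control arrays and 24.2, 6.31, 3.63, 4.33 and 6.84 at 24 hours, which overlap (0.39 ± 0.64, adjusted p = 0.705). Ifng, the type II interferon of T and NK cells, read 3.95 to 74.2 and 2.29 to 31.1 (-1.15 ± 0.81, adjusted p = 0.322). Of 31 ligands, receptors, sensors and factors of the pathway, 13 rose and 3 fell (Tlr7, Tlr9 and Irf5), with a median of 0.39. The fall of Tlr7 lost its call with the mean of its probe sets. That of Tlr9 was lost without 24-hour replicate 1, 2 or 4 or non-irradiated replicate 2, 3 or 5 (log2 changes from -0.942 to -0.811), and that of Irf5 without non-irradiated replicate 2 (log2 change -0.418, adjusted p = 0.0527). Among receptors, Ifngr2, a chain of the type II receptor, rose without overlap from 804, 866, 1022, 906 and 1101 to 2572, 3520, 3272, 2881 and 3156 (1.71 ± 0.15, adjusted p = 9.56e-10). Ifngr1 rose as well (1.07 ± 0.15), as did Ifnar2 of the type I receptor (0.82 ± 0.081), while Ifnar1 did not pass (0.048 ± 0.15, adjusted p = 0.856), although it rose after centring and its direction turned with the mean of its probe sets. Of the factors, Irf7, which amplifies type I interferon, went from 249, 137, 114, 245 and 217 to 817, 1039, 881, 988 and 902 (2.32 ± 0.22, adjusted p = 6.03e-09). The irradiated arrays of Irf7 all exceeded the control arrays by a wide margin, and they exceeded those at 6 hours (1.40 ± 0.22, adjusted p = 3.51e-05). Stat2 (1.49 ± 0.19) and Irf9 (0.60 ± 0.17), parts of the factor that binds response elements, rose, and Irf1 passed only after centring (0.13 ± 0.16, adjusted p = 0.58). The sensors of double-stranded RNA Tlr3 (1.85 ± 0.29), Ddx58 (1.79 ± 0.20) and Ifih1 (1.45 ± 0.31) rose without overlap.

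Of 20 measured genes of antigen processing and presentation 8 rose and 3 fell, where 15.7% and 13.8% of all genes did. After centring 14 rose. Those that rose include the inducible proteasome subunits Psmb8 (1.23 ± 0.15) and Psmb10 (1.14 ± 0.20) and the peptide transporter Tap1 (1.06 ± 0.19), whose call was lost with the mean of its probe sets. The 3 that fell were the class II activator Ciita (-1.50 ± 0.53, adjusted p = 0.0335), H2-Ab1 (-0.95 ± 0.32, adjusted p = 0.025) and the invariant chain Cd74 (-0.74 ± 0.18, adjusted p = 0.00292). None of the 3 kept its call when arrays were centred on their medians, and 1 of the 3 was called without 24-hour replicate 1 or 5 or non-irradiated replicate 4. The call of Ciita was lost without 24-hour replicate 1, 2 or 5 or non-irradiated replicate 3 or 4 (log2 change -1.32, -1.3, -1.35, -1.41 and -1.33). That of H2-Ab1 was lost without 24-hour replicate 1, 3 or 5 or non-irradiated replicate 2 or 4 (log2 change -0.884, -0.868, -0.9, -0.911 and -0.748).

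Of 23 chemokines 10 rose and 1 fell at 24 hours, with 7 above and 8 below 6 hours. Both this list and the NF-kB list below compare with 15.7% of all genes that rose and 13.8% that fell. Against 6 hours, 13.7% of all genes were higher and 10.1% lower. Cxcl10, which draws activated T cells through the receptor CXCR3, had signals of 471, 517, 201, 239 and 355 without irradiation and 2313, 2315, 2321, 2290 and 2264 at 24 hours. The irradiated values of Cxcl10 were almost identical to each other and far above the controls (2.78 ± 0.22, adjusted p = 1.89e-10), and above 6 hours (1.06 ± 0.22, adjusted p = 0.000733). Cxcl9, a ligand of the same receptor, rose without overlap (2.06 ± 0.13), as did the B-cell attractant Cxcl13 (1.99 ± 0.44) and Cxcl14 (1.48 ± 0.092). Cxcl13 was far lower at 6 hours, with signals of 358, 90.9, 74.5, 646 and 77.5 (2.71 ± 0.44, adjusted p = 4.15e-05). The monocyte attractant Ccl2 was still raised at 24 hours (1.45 ± 0.17, adjusted p = 2.32e-07) but below its 6-hour level (-2.45 ± 0.17, adjusted p = 8.72e-11). The neutrophil attractant Cxcl1 read 1850, 1941, 2184, 1734 and 2680 in controls, 13194, 11584, 13320, 9379 and 15438 at 6 hours and 2769, 2146, 2154, 1844 and 2285 at 24 hours. Its 24-hour arrays overlapped the controls (0.11 ± 0.13, adjusted p = 0.573), from which they differed only after centring, and all lay below the 6-hour arrays (-2.48 ± 0.13, adjusted p = 6.07e-13). Il6 followed the same course, with no call against controls (0.08 ± 0.28, adjusted p = 0.871) and a lower level than at 6 hours (-2.57 ± 0.28, adjusted p = 1.48e-07). The macrophage chemokine Ccl3 fell below control (-0.87 ± 0.12, adjusted p = 1.37e-06) although it was higher at 6 hours, the only chemokine of the list to fall. Of 25 NF-kB subunits, feedback genes and cytokines, 6 rose (11 after centring), 2 fell (Tnfaip3 and Nfkbiz, the latter turning upward after centring), and 12 were below and 2 (Il1b and Vcam1) above their 6-hour level. Tnfaip3, the ubiquitin-editing inhibitor of NF-kB, fell (-0.97 ± 0.16, adjusted p = 2.22e-05), and Lif, a cytokine of the interleukin 6 family, rose (2.15 ± 0.42, adjusted p = 0.000248).

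Genes of the smooth muscle contractile apparatus gave the largest rises. Of 21 measured, 13 rose and 1 fell, with a median of 0.92, and 10 were above and 2 (Smtn and Pln) below 6 hours. Acta2, the smooth muscle alpha actin, read 164, 329.9, 199, 128 and 156 in the control arrays and 7206, 8093, 8255, 7131 and 7516 at 24 hours. No other gene above background in all 10 arrays had a larger fitted rise (5.36 ± 0.28, adjusted p = 8.56e-14). At 6 hours Acta2 read 784, 697, 529, 255 and 481, on the whole above control but far below the later level (3.89 ± 0.28, adjusted p = 1.1e-10). The other probe sets named Acta2 changed by 0.66 to 0.79. Actg2, the enteric gamma actin, was at or below background in all control arrays (1.41 to 5.72) and in 4 of the 5 6-hour arrays, and read 269, 279, 236, 253 and 339.9 at 24 hours. That is at least 8.68-fold above background. Tagln, the actin-bundling transgelin, went from 239, 57.3, 118, 97.9 and 112 to 2034, 2440, 1965, 2232 and 2183 with no overlap (4.26 ± 0.28, adjusted p = 8.41e-12). Myl9, the regulatory light chain of myosin, went from 1520, 1064, 1140, 1413 and 927 to 9471, 11527, 10551, 9090 and 9764 (3.07 ± 0.16, adjusted p = 1.32e-13), and Tpm2, a tropomyosin, rose to a like degree (2.86 ± 0.13). The kinase of the light chain, Mylk (1.60 ± 0.083), and the amine oxidase Aoc3 of the smooth muscle membrane (3.10 ± 0.48) rose without overlap. Pln, which inhibits the calcium pump of muscle, fell from 628, 545, 610.4, 898 and 548 to 129, 179, 198, 86.7 and 111 (-2.23 ± 0.34, adjusted p = 1e-05). Calponin 1, smooth muscle myosin heavy chain and leiomodin 1, markers of mature contractile muscle, did not pass the test.

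Of the factors that drive contractile genes, Srf and Myocd were not called by their brightest probe sets. Srf, the serum response factor, read 950.3, 909.6, 1162, 866 and 966 and 1401, 1208, 1329, 1172 and 1337, higher in every irradiated array but short of the threshold (0.41 ± 0.16, adjusted p = 0.0517). Its call was reached without non-irradiated replicate 3 (log2 change 0.48, adjusted p = 0.0351) and under several other settings. With the mean of its probe sets the log2 change of Srf was 1.14 (adjusted p = 0.00118). Srf was lower than at 6 hours (-0.76 ± 0.16, adjusted p = 0.00086), and its cofactor Myocd did not pass (-0.48 ± 0.53, adjusted p = 0.549), with a direction that turned with the mean of its probe sets. Of 20 genes of SRF and its actin targets, 13 rose and 1 fell. That was Actb, by a small amount that turned upward after quantile normalization and centring (-0.34 ± 0.08, adjusted p = 0.00175). Against 6 hours 2 were higher (Mrtfa and Flna) and 7 lower. The crosslinker Actn1 (1.54 ± 0.12), the focal adhesion protein Vcl (1.08 ± 0.092) and Tgfb1i1 (1.91 ± 0.11) rose without overlap, and Ccn2, a matrix growth factor, rose (1.14 ± 0.089) but lay below its 6-hour level (-1.25 ± 0.089). The CArG box that SRF binds, searched in its strict form on both strands, was present before the start of 8 of 16 genes of that list and 2 of 17 contractile genes with a window, against 1.62% of all genes. Genes long known to be targets of SRF made up the list, so a high share there is no finding of these data. Of the genes that rose and of those that fell at 24 hours, 1.73% and 1.44% held it. For 4 genes that rose the 80 bases with the box in capitals are given in the same way.
Myl9, chr2:156775274-156775353, plus strand: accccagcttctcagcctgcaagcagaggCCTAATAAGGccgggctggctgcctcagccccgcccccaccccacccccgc
Cnn2, chr10:79988510-79988589, plus strand: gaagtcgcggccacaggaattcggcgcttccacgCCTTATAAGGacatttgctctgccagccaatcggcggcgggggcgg
Actg1, chr11:120348536-120348615, minus strand: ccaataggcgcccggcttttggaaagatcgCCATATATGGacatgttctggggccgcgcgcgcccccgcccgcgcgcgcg
Vcl, chr14:20929148-20929227, plus strand: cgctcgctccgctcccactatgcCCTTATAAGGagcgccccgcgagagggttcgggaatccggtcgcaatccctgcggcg
Cnn2 (1.18 ± 0.085, adjusted p = 3.8e-11) and Actg1 (0.63 ± 0.068, adjusted p = 4.53e-08) are broadly expressed relatives of the contractile genes.

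Many markers of pericytes and stroma rose against controls. Against 6 hours 3 pericyte markers were higher and 3 lower, and 11 stromal and osteoblast markers were higher and 5 lower. Of 14 pericyte markers 8 rose and none fell, including Notch3, the receptor of mural cells, from 905, 1189, 1060, 899 and 923 to 3144, 3453, 3367, 3207 and 3155 (1.72 ± 0.17, adjusted p = 1.43e-08), and Pdgfrb, the receptor that recruits them (0.77 ± 0.075, adjusted p = 8.4e-09). The pericyte marker Higd1b was near background in most arrays and did not pass (-0.84 ± 0.84, adjusted p = 0.503). The summed signal of the pericyte list ran from 10496 to 11054 in controls and from 20281 to 22222 at 24 hours. Of 19 stromal and osteoblast markers 3 fell and 14 rose, and their summed signal ran from 123614 to 133318 in controls and from 143626 to 172847 at 24 hours. The part of these cells in the rise of contractile genes was not tested. Sp7, the factor that commits osteoblasts, read 592, 579, 682, 668 and 498 and then 2252, 2140, 2083, 2240 and 2159, without overlap and with little spread (1.85 ± 0.15, adjusted p = 3.93e-10). Pth1r, the parathyroid hormone receptor (1.86 ± 0.16), the fibrillar collagen Col3a1 (1.46 ± 0.14) and periostin, Postn (1.64 ± 0.20), rose without overlap, and all 4 were above 6 hours. The 3 that fell, Col1a1 (-0.38 ± 0.096, adjusted p = 0.00352), Col1a2 and Cxcl12, changed by small amounts, and all 3 turned upward after quantile normalization and centring. Lepr, which marks the reticular cells of the niche, passed only after centring (0.056 ± 0.062, adjusted p = 0.553).

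Transcripts of TGF-beta family genes, inhibitors included, and of matrix genes rose broadly. Of 28 genes of the family 20 rose and none fell (median 1.03). Among ligands, Tgfb2 went from 299, 114, 166, 59 and 200.1 to 955, 896, 688, 797 and 773 with no overlap (2.47 ± 0.37, adjusted p = 9.5e-06). Tgfb3 (1.63 ± 0.28) and Bmp4 (2.06 ± 0.16) also rose, while Tgfb1 did not pass (0.30 ± 0.24, adjusted p = 0.394), although it rose after centring and turned downward with the mean of its probe sets. The receptor Tgfbr2 rose (1.00 ± 0.19), and its call was lost with the mean of its probe sets. Inhibitors were prominent. Smad6, which blocks BMP receptors, read 183, 284, 136, 189 and 199 in controls and 1996, 1736, 1730, 1969 and 2034 at 24 hours. The groups of Smad6 were far apart (3.28 ± 0.27, adjusted p = 5.2e-10), and the level was above 6 hours (1.68 ± 0.27, adjusted p = 4.68e-05). Smad7 (1.88 ± 0.27) and follistatin, Fst, which traps activins (2.46 ± 0.15), rose, as did the BMP target Id1 (1.33 ± 0.17). Of 23 basement membrane and matrix genes 19 rose and none fell, with 12 above 6 hours. Col6a2 of the beaded filaments (2.01 ± 0.17) and the laminin chain Lamb1 (1.61 ± 0.12) rose without overlap. Col4a1, a chain of basement membrane collagen, rose (0.93 ± 0.076) and was not called against 6 hours (-0.16 ± 0.076, adjusted p = 0.135).

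**Figure D3:**
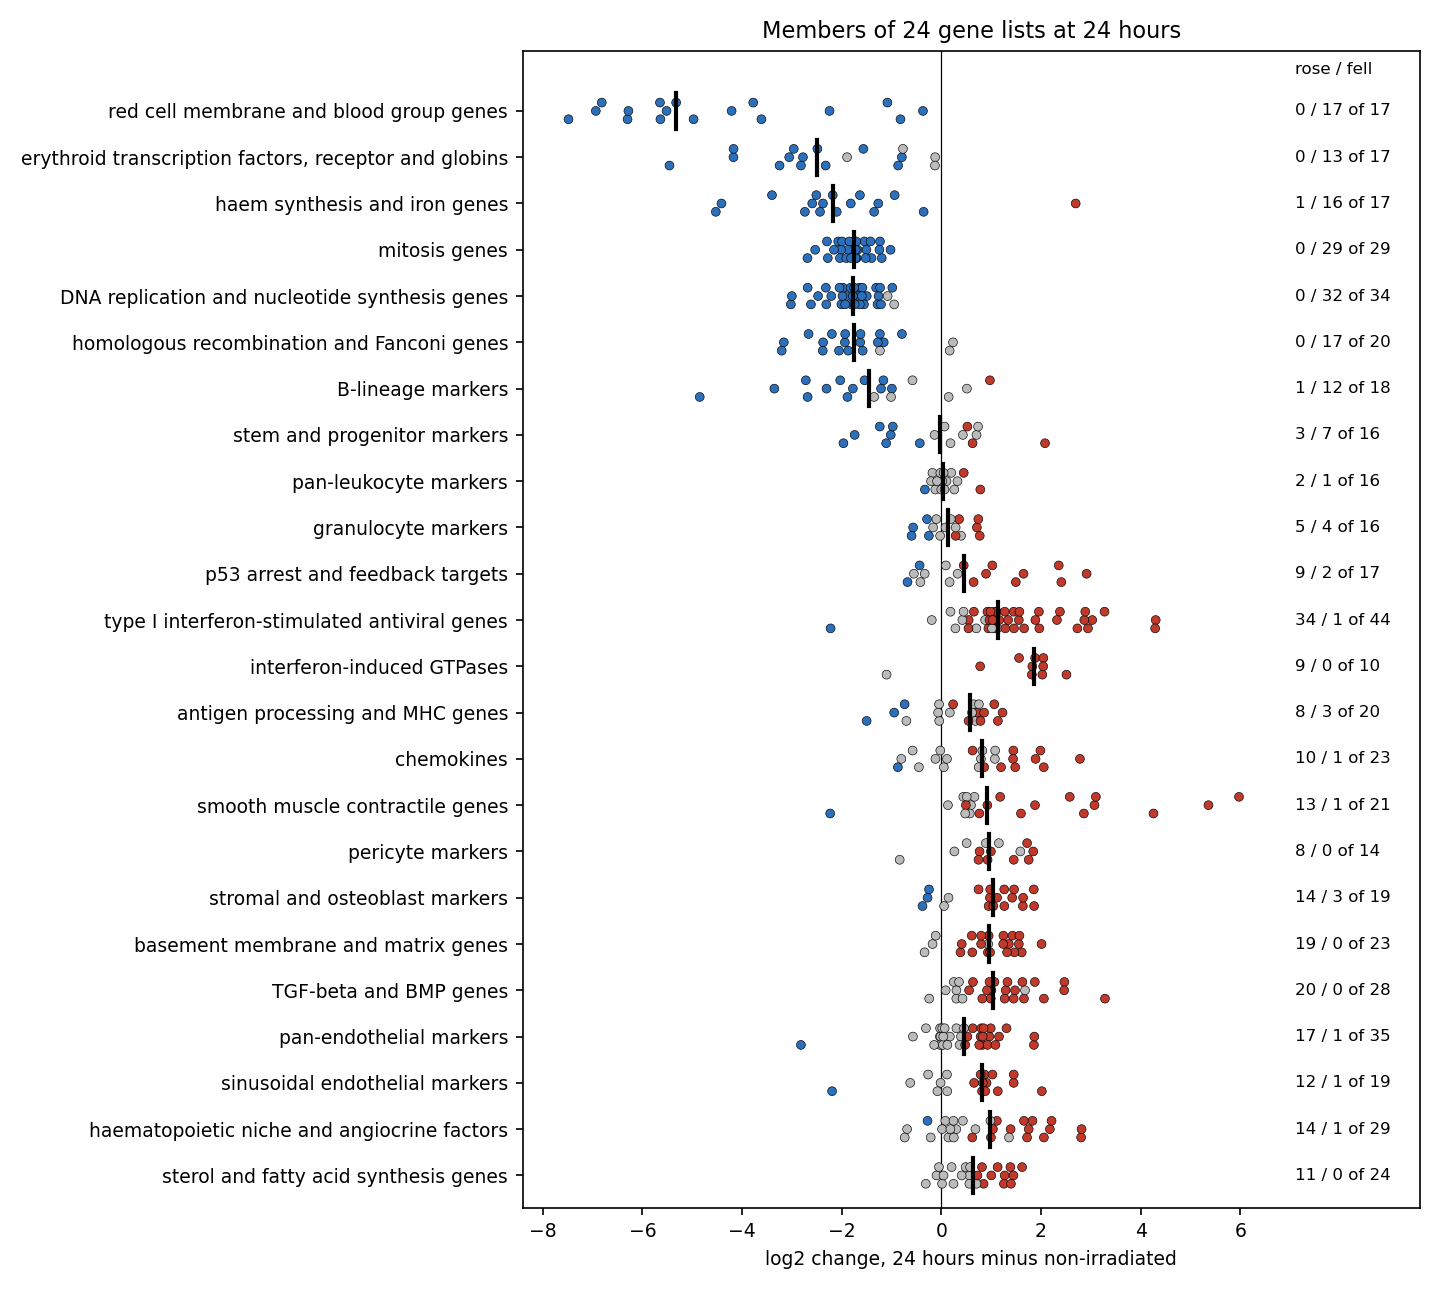
Log2 change from non-irradiated to 24 hours (x axis) of the measured members of 24 gene lists, with each point a gene, red for rose, blue for fell and grey for no call, the black bar the median, and the counts at the right. The red cell membrane list lies lowest, with all 17 members in blue and a median of -5.32, and the interferon-induced GTPases have the highest median, 1.85.

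Endothelial genes were modestly above control and below their 6-hour level. Of 35 pan-endothelial markers 17 rose and 1 fell (median 0.46, with 28 that rose after centring), while 29 were below 6 hours and none above. Cdh5, the gene of the antigen that the labels name, read 3312, 2829, 3961, 3115 and 2710 in controls, 7631, 8328, 8560, 9309 and 10944 at 6 hours and 5019, 5097, 4680, 4706 and 4950 at 24 hours. The 24-hour arrays thus lay above every control array (0.63 ± 0.12, adjusted p = 0.000238) and were lower than at 6 hours (-0.86 ± 0.12, adjusted p = 8.49e-06). The junction protein Pecam1 overlapped the controls and did not pass (0.39 ± 0.18, adjusted p = 0.096), although it rose after centring, with array weights and in a fit of only the 2 groups. Kdr, the main receptor of VEGF, did not pass (-0.029 ± 0.16, adjusted p = 0.918), and its direction turned after centring. Emcn, a sialomucin of sinusoids and veins (1.31 ± 0.14), Plvap of the fenestral diaphragm (1.86 ± 0.17) and the lectin Clec14a (1.87 ± 0.32) rose most. The only fall was that of Tal1, a factor that red cell precursors share with endothelium, which read 1410 to 1961 in controls and 188 to 360.1 at 24 hours (-2.82 ± 0.22, adjusted p = 1.33e-10). Of 19 sinusoidal markers 12 rose and 1 fell, with 11 below 6 hours. The scavenger receptor Stab2 went from 1128, 1043, 892, 860.4 and 950 to 1689, 1739, 1864, 1876 and 1943 (0.91 ± 0.15, adjusted p = 2.38e-05) but stood lower than at 6 hours (-1.08 ± 0.15, adjusted p = 4.04e-06). The member that fell, Clec4g, was at or below background in every irradiated array, at least 1.27-fold lower, and lost its call without any of 6 single arrays (24-hour replicates 1, 3 and 4 and non-irradiated replicates 1, 2 and 4, with log2 changes from -2.15 to -1.94). Among growth factors of vessels, Apln, the ligand of the apelin receptor, rose (3.21 ± 0.45, adjusted p = 3.4e-06), as did Vegfa (1.16 ± 0.17, adjusted p = 7.12e-06). Edn1, the vasoconstrictor endothelin, rose against control (2.08 ± 0.37, adjusted p = 7.77e-05) and was far below its 6-hour level (-2.55 ± 0.37, adjusted p = 1.03e-05). Procr, the receptor of activated protein C, rose (2.08 ± 0.30), and its difference from 6 hours did not pass (-0.51 ± 0.30, adjusted p = 0.237).

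Growth factors of the haematopoietic niche changed unequally. Of 29 measured, 14 rose and 1 fell, with 10 above and 8 below 6 hours. Il7, the growth factor of early lymphocytes, read 505, 533, 552, 218 and 425 in controls, 409.5, 350.5, 180.3, 255 and 296 at 6 hours and 2918, 3023, 2816, 2762 and 3377 at 24 hours. All 24-hour arrays of Il7 lay far above both other groups (2.81 ± 0.23, adjusted p = 3.81e-10 against control, 3.37 ± 0.23, adjusted p = 5.57e-11 against 6 hours). Rspo3, an amplifier of WNT signals, went from 205, 250.2, 101, 166 and 161 to 755, 844, 641, 817 and 803 (2.18 ± 0.24, adjusted p = 7.37e-08) and was likewise above 6 hours (2.62 ± 0.24, adjusted p = 8.63e-09). The heparin-binding factor Mdk (1.83 ± 0.13) and Igf1 (1.72 ± 0.16) rose without overlap, and both were above 6 hours by about as much (2.06 ± 0.13 and 1.87 ± 0.16). Kitl, the stem cell factor, read 3138, 3307, 3839, 3485 and 3505 and 4729, 6002, 5501, 5060 and 5307, a rise with no overlap (0.62 ± 0.099, adjusted p = 1.92e-05). Cxcl12, which holds stem cells in the marrow, fell slightly (-0.28 ± 0.088, adjusted p = 0.0182). The groups overlapped, the direction turned upward after quantile normalization, after centring and with its probe sets averaged, and the call was lost without 24-hour replicate 4 (log2 change -0.206, adjusted p = 0.0752). Fgf23, the phosphate-lowering hormone, read 28, 34.5, 36.6, 4.35 and 21.9 in controls, 1571, 2872, 1958, 3239 and 3270 at 6 hours and 184, 118, 99.2, 183 and 200 at 24 hours. The controls of Fgf23 were at or below background in 4 of 5 arrays, and it was still raised at 24 hours (2.81 ± 0.42, adjusted p = 8.68e-06) and was among the 6 genes with the largest falls from 6 hours (-4.03 ± 0.42, adjusted p = 7.95e-08). The Notch ligand Jag1 rose (1.39 ± 0.15).

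Sterol synthesis genes were higher than in controls and at 6 hours. Of 24 sterol and fatty acid synthesis genes 11 rose (17 after centring) and none fell, and 13 were above 6 hours and none below. Hmgcs1, an early enzyme of the mevalonate pathway, read 1425, 1625, 1789, 1496 and 1791 and then 3989, 4348, 5459, 4034 and 3548 (1.39 ± 0.16, adjusted p = 2.33e-07), and its groups did not overlap. Insig1, which retains the SREBP complex in the endoplasmic reticulum, rose (1.27 ± 0.16, adjusted p = 4.51e-07), as did Srebf2, the sterol-regulated factor itself (0.82 ± 0.22, adjusted p = 0.00648).

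p53 targets remained raised in part. Of 17 arrest and feedback targets 9 rose and 2 fell (Ppm1d and Mdm4), with none above and 10 below 6 hours. Cdkn1a, the cyclin-dependent kinase inhibitor p21, read 871, 906, 923, 974 and 1043 in controls and 4547, 5716, 5162, 4704 and 4956 at 24 hours. Every irradiated array was far above every control (2.41 ± 0.096, adjusted p = 8.22e-16), and the difference from 6 hours did not pass (-0.25 ± 0.096, adjusted p = 0.0588). Phlda3, an inhibitor of AKT, rose by a like amount (2.92 ± 0.15, adjusted p = 1.1e-13 against control, -0.088 ± 0.15, adjusted p = 0.725 against 6 hours). Ccng1, cyclin G1, rose (1.50 ± 0.10, adjusted p = 1.04e-11) and had come down from 6 hours (-0.48 ± 0.10, adjusted p = 0.000831). Mdm2, the ligase that degrades p53, rose slightly, with overlapping groups and a call lost with the mean of its probe sets (0.45 ± 0.12, adjusted p = 0.00443). Ppm1d, the phosphatase that switches off p53, fell (-0.68 ± 0.22, adjusted p = 0.0193), a call lost without 24-hour replicate 3 (log2 change -0.622, adjusted p = 0.0512), after centring and without the intensity trend. The fall of Mdm4, an inhibitor of p53 (-0.44 ± 0.12), lost its call after centring and with averaged probe sets. Of 16 death targets 9 rose and 3 fell (Pidd1, Ptprv and Siva1), of which Pidd1 alone kept its call after centring, and Siva1 also lost it with averaged probe sets. Against 6 hours 1 death target (Casp1) was higher and 5 were lower. Eda2r, a death receptor of the TNF family, read 9.58, 18.8, 42.3, 101 and 16 in controls and 621, 453, 302, 480.2 and 480.4 at 24 hours, with no overlap (4.05 ± 0.48, adjusted p = 2.63e-07). Of its control arrays 2 were above background. The death receptor Tnfrsf10b rose (1.31 ± 0.31) and was below 6 hours (-1.45 ± 0.31, adjusted p = 0.000888). Of 19 repair and metabolic targets 8 rose and 2 fell (Gpx1 and Lpin1), and 14 rose after centring. Against 6 hours 2 of them were higher and 3 lower. Ak1, an adenylate kinase, was 1 of the 2 above 6 hours, with a rise against control (2.93 ± 0.16, adjusted p = 2.78e-13) and against 6 hours (1.22 ± 0.16, adjusted p = 2.83e-06).

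**Figure D4:**
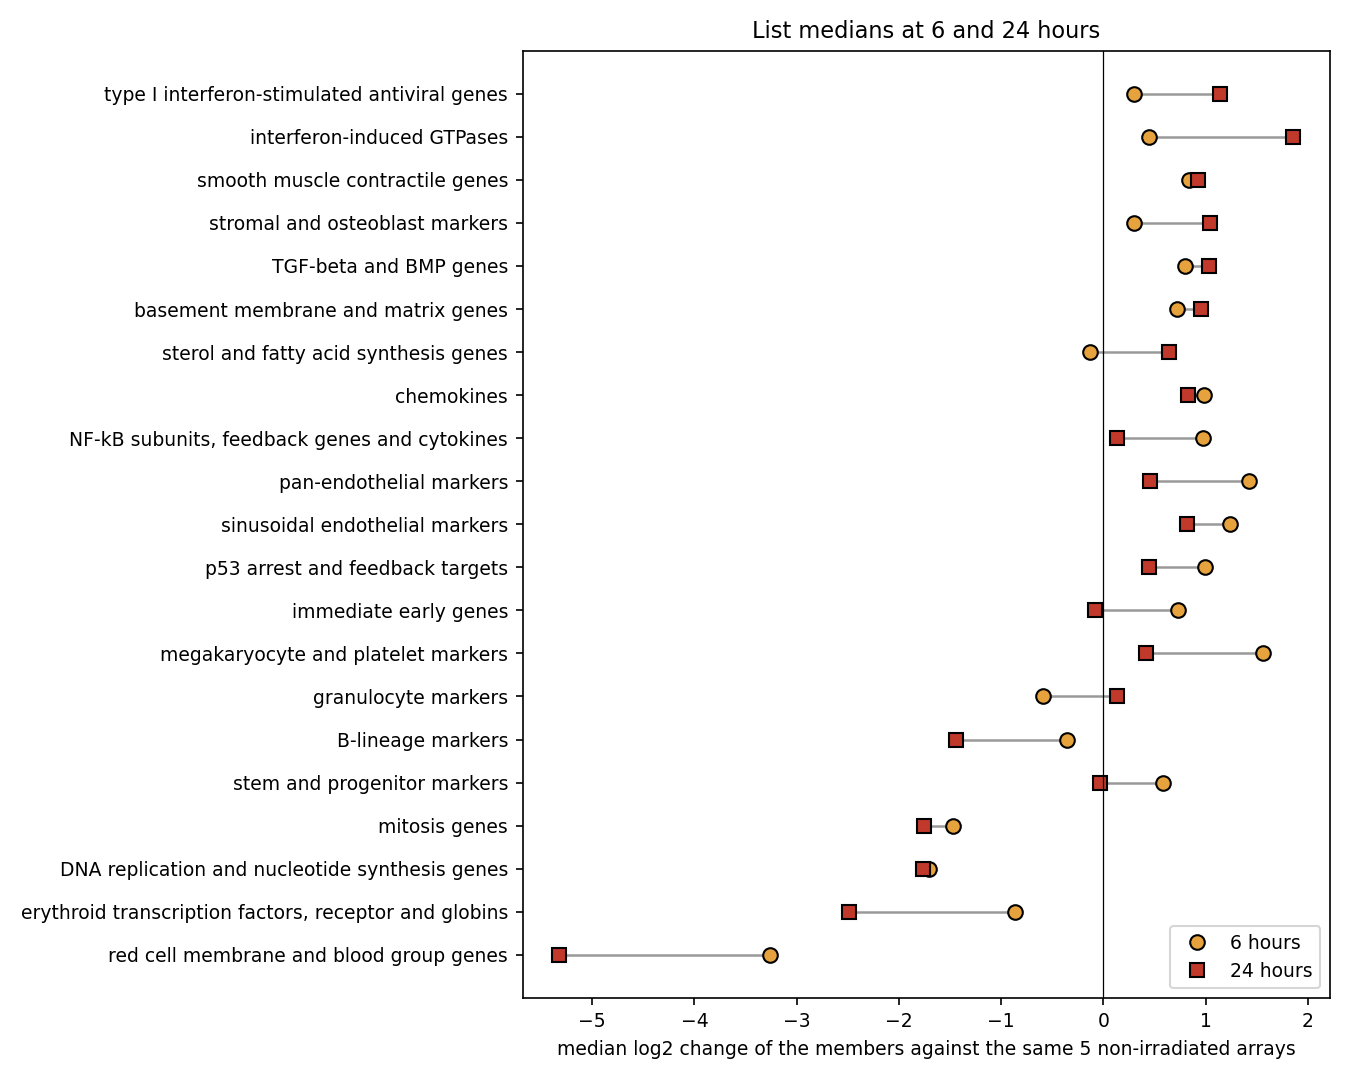
Median log2 change of the members of 21 gene lists (x axis) at 6 hours (circles) and 24 hours (squares), each against the same 5 non-irradiated arrays. The antiviral, interferon-induced GTPase, smooth muscle, stromal, TGF-beta, matrix, sterol and granulocyte lists lie further right at 24 hours. All other lists plotted lie further left, some by little, such as the DNA replication list (-1.71 at 6 hours and -1.76 at 24 hours).

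The largest falls were in genes of red cell precursors. Of 17 red cell membrane and blood group genes all 17 fell, with a median of -5.32 (-5.21 with the 2 members at background counted at their bound), and 12 were lower than at 6 hours and 1, Gypc, was higher. The summed signal of the list ran from 62367 to 68097 in controls and from 8067 to 8789 at 24 hours. Kel, the Kell blood group protein, read 3378, 3361, 3176, 3179 and 3008 in controls and 49.3, 22.8, 26.1, 1.01 and 28.2 at 24 hours, where 2 of the 5 irradiated arrays were above background (-7.48 ± 0.52, adjusted p = 1.85e-11). Rhd, a chain of the Rh complex, read 2204, 2098, 2232, 2077 and 2369 and then 10.1, 71.2, 27.9, 18.4 and 5.28, where 2 of the 5 irradiated arrays were above background (-6.81 ± 0.55, adjusted p = 2.94e-10). Its partner Rhag was at or below background in all 5 irradiated arrays, at least 37-fold under its control level. Slc4a1, the band 3 anion exchanger, went from 12950, 12133, 12561, 13022 and 13078 to 398, 321, 255, 181 and 281 and kept a measurable signal (-5.51 ± 0.20, adjusted p = 1.25e-16). Sptb, the beta spectrin of red cells, was at least 44.8-fold lower by its brightest probe set, while its other probe set changed by 0.37. Gypc, also expressed outside red cells, fell least (-0.37 ± 0.11, adjusted p = 0.0108), and its direction turned after centring.

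The factors that specify red cells fell with their targets. Of 17 erythroid factors, receptors and globins none rose and 13 fell. Klf1 read 6133, 5343, 5628, 5752 and 5609 in controls, 592, 232, 264, 474 and 590 at 6 hours and 157, 153, 172, 77.5 and 109.8 at 24 hours. The 3 groups of Klf1 did not overlap, and the fall continued after 6 hours (-5.46 ± 0.23, adjusted p = 1.95e-15 against control, -1.63 ± 0.23, adjusted p = 7.12e-06 against 6 hours). Gata1 went from 1515, 1235, 1450, 1328 and 1257 to 144, 173, 194, 124 and 187 (-3.05 ± 0.21, adjusted p = 1.52e-11), and Epor, the erythropoietin receptor, fell (-2.49 ± 0.33, adjusted p = 1.08e-06) without a called difference from 6 hours (0.085 ± 0.33, adjusted p = 0.887). Of 17 haem and iron genes 16 fell. Tfrc, the transferrin receptor that brings in iron, read 9073, 8424, 8777, 8391 and 9083 and then 306, 373, 405, 465 and 537, with no overlap (-4.41 ± 0.16, adjusted p = 1.25e-16). Hmox1, which breaks haem down and is induced in macrophages that clear red cells, was the member that rose, from 428, 360.2, 390, 236 and 277 to 2012, 2380, 2263, 1997 and 2100 (2.70 ± 0.17, adjusted p = 3.77e-12), and it was above 6 hours (1.29 ± 0.17, adjusted p = 2.95e-06). The core of the GATA site, AGATAA on either strand, lay before the start of 5 of 12 membrane genes and 2 of 13 haem and iron genes with a window, against 11.4% of all genes and 8.79% of those tested here. Of the genes that rose and of those that fell at 24 hours, 5.78% and 8.52% held it. Kel and Rhd, shown with the match in capitals, hold it close to the start.
Kel, chr6:41704336-41704415, minus strand: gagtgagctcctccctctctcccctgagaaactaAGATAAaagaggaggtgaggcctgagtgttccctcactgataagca
Rhd, chr4:134864456-134864535, plus strand: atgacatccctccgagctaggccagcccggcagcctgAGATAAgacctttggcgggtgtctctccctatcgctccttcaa
The largest fitted falls outside these lists were those of Btnl10, a butyrophilin-like gene at least 64.1-fold lower, and Mageb16, at least 24.3-fold lower, both at or below background in every irradiated array.

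Genes of the dividing cell fell throughout. All 29 mitosis genes fell (median -1.76), as did 32 of 34 DNA replication genes, all but Gins3 and Orc1, which passed with array weights (median -1.76), and 17 of 20 homologous recombination and Fanconi genes, and none of these lists had a member that rose. Mki67, the Ki-67 antigen of cycling cells, read 17731, 17583, 18268, 18391 and 18285 in controls and 4661, 5467, 5563, 4693 and 5544 at 24 hours. The gap between the groups of Mki67 was wide (-1.80 ± 0.077, adjusted p = 2.34e-15), and the level was lower than at 6 hours (-0.77 ± 0.077, adjusted p = 3.23e-08). Espl1, the separase that parts sister chromatids (-2.69 ± 0.27), and Cenpf, a kinetochore protein (-2.53 ± 0.26), fell most of the list. Cdc6, which loads the replicative helicase, went from 3372, 3482, 3473, 3393 and 3281 to 474, 303, 477, 484 and 385 without overlap (-3.02 ± 0.16, adjusted p = 1.44e-13) and had recovered a little from 6 hours (0.46 ± 0.16, adjusted p = 0.0372). Rrm2, the small subunit of ribonucleotide reductase, fell against control (-1.75 ± 0.15) and was higher than at 6 hours (0.65 ± 0.15, adjusted p = 0.00162). Brca1 (-2.37 ± 0.28), its partner Bard1 (-3.20 ± 0.46) and the checkpoint kinase Chek1 (-2.50 ± 0.23) fell without overlap. Of 29 E2F, retinoblastoma and cyclin genes 18 fell and 3 rose: the cyclins Ccnd1 (1.28 ± 0.25) and Ccnd2 (1.76 ± 0.13) and the inhibitor Cdkn1c (1.21 ± 0.29). These falls came together with those of the red cell lists, and the part of red cell precursors in them was not tested.

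Most B-lineage markers fell. Of 18 B-lineage markers 12 fell and 1 rose, with 7 below and 1 above 6 hours (Ebf1). Rag1, the recombinase of antigen receptor genes, read 133, 50.1, 135, 60.2 and 118 in controls and 0.949, 0.923, 0.872, 2.89 and 11.5 at 24 hours, where all 5 arrays were at or below background, at least 3.38-fold lower. Pax5, the factor of B-cell identity (-3.35 ± 0.66), Il7r, the receptor of interleukin 7 (-2.72 ± 0.61), and the surrogate light chain Vpreb1 (-2.68 ± 0.72) fell without overlap. The member that rose was Ebf1, a B-cell factor that marrow stromal cells also express, from 832, 999, 933, 1116 and 987 to 2189, 1811, 1667, 2041 and 1862 (0.98 ± 0.19, adjusted p = 0.000307). Of 16 pan-leukocyte markers 2 rose (Spi1 and Fcer1g, but 8 after centring) and 1 fell, where 15.7% and 13.8% of all genes did. Their summed signal ran from 60032 to 68080 in controls and from 61512 to 68484 at 24 hours. The fall was that of Ptprc (-0.33 ± 0.11, adjusted p = 0.0227). It turned upward after centring and lost its call without 24-hour replicate 3 or 4 or non-irradiated replicate 3 (log2 change -0.303, -0.314 and -0.281). The rise of Spi1, the myeloid and B-cell factor PU.1, lost its call without 24-hour replicate 2 or non-irradiated replicate 2 or 5 (log2 change 0.656, 0.707 and 0.735).

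Among granulocyte markers 5 of 16 rose (Ctsg, Ms4a3, Prtn3, Mmp9 and Lcn2), led by Ctsg of the primary granules (0.77 ± 0.10), and 4 fell (S100a9, S100a8, Ngp and Camp, of which Ngp and Camp turned upward after centring), among them S100a8 (-0.57 ± 0.079). Of all genes 15.7% rose and 13.8% fell. The rise of Mmp9 lost its call without 24-hour replicate 1, 2 or 4 or non-irradiated replicate 1, 2 or 5 (log2 changes from 0.314 to 0.36), and the fall of Camp without 24-hour or non-irradiated replicate 4 (log2 change -0.203 and -0.204). The falls of S100a8 and S100a9 lost their call after quantile normalization and centring, and 14 granulocyte markers were above and 2 (S100a8 and S100a9) below 6 hours. Of 20 macrophage markers 8 rose and 3 fell (Csf1r, Ccr2 and Lyz2), where 15.7% and 13.8% of all genes did, and Csf1r alone of the 3 still fell after centring. The small fall of Lyz2 turned upward after centring and lost its call without 24-hour replicate 1, 4 or 5 or non-irradiated replicate 1, 3, 4 or 5 (log2 changes from -0.235 to -0.188). C1qc, a chain of complement C1q made by tissue macrophages, read 5.98, 19.3, 49.6, 3.35 and 107 in controls and 222, 165, 197, 176 and 133 at 24 hours, with no overlap (3.13 ± 0.72, adjusted p = 0.00139). Its control signals of 5.98, 19.3 and 3.35 were below background. Csf1r, the receptor of the macrophage growth factor, fell (-1.10 ± 0.22, adjusted p = 0.00039). Of 16 stem and progenitor markers 7 fell, among them the stem cell factor receptor Kit (-1.01 ± 0.23, adjusted p = 0.00135), and 3 rose (Procr, Ctla2a and Cd34), with a median of -0.036 that turned to 0.35 after centring. The 7 falls were 4 without 24-hour replicate 5 or non-irradiated replicate 1 or 3, 4 after quantile normalization and 3 after centring (Kit, Mllt3 and Myb).

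Of 24 immediate early genes 2 rose (Dusp6 and Ier2) and 8 fell, and 19 were below 6 hours and none above. After centring the balance reversed, with 8 that rose and 1 (Atf3) that fell. The rise of Ier2 lost its call without 24-hour replicate 1, 2, 3 or 4 or non-irradiated replicate 2 or 4 (log2 changes from 0.4 to 0.465). The median of the list was -0.082 and turned to 0.30 after centring. Fos did not pass against control (-0.16 ± 0.072, adjusted p = 0.0989), with a direction that turned after quantile normalization and centring, and was below 6 hours (-0.65 ± 0.072, adjusted p = 1.78e-07), and Atf3, a stress-induced repressor, fell below control (-1.21 ± 0.23, adjusted p = 0.000131). Of 22 genes of the unfolded protein and integrated stress responses 9 rose and 5 fell. Most rises were in chaperones of the endoplasmic reticulum such as Pdia4, from 816, 901, 1079, 1147 and 1121 to 3901, 4175, 3909, 3721 and 3920 (1.97 ± 0.13, adjusted p = 1.53e-11), although its other probe sets changed by -1.17 and the call was lost with the mean of its probe sets. The falls were those of Asns, Atf3, Ddit3, Ppp1r15a and Atf4, all of the ATF4 branch, with Atf4 itself turning upward after centring and with its probe sets averaged. They were led by asparagine synthetase, Asns, from 3424, 3442, 3431, 2981 and 3095 to 823, 658, 721, 662 and 676 (-2.21 ± 0.13, adjusted p = 1.35e-12). Of 16 heat shock proteins and co-chaperones 11 fell, but 3 fell after centring. Hspa1a, the inducible HSP70, read 879.5, 754, 1327, 1255 and 1150 and 690.2, 462, 423, 478 and 471 (-1.08 ± 0.16, adjusted p = 5.15e-06). Of 14 cytosolic ribosomal protein genes 12 fell, but 1 after centring, so that call depends on the scaling. Of 21 genes of NRF2 and glutathione 6 rose and 7 fell (11 and 4 after centring), the latter led by Gclc, the rate-limiting enzyme of glutathione synthesis (-2.65 ± 0.18, adjusted p = 1.99e-11).

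Some of the largest rises were in genes not yet described. Among the 10 largest rises, Calhm5 read 79.2, 4.1, 16.7, 6.02 and 7.98 in controls and 197, 223, 272, 331 and 480.5 at 24 hours (4.40 ± 0.78, adjusted p = 7.84e-05). Steap1, a metalloreductase, read 4.46, 4.93, 6.89, 46.8 and 17.3 and then 213, 259.8, 163, 236 and 173 (4.14 ± 0.85, adjusted p = 0.000422), again with no overlap. Gzme, a granzyme, was at or below background in all control arrays and at least 2.54-fold above it at 24 hours. Zfp365, which protects replicating chromosomes and is on the list of repair and metabolic p53 targets, read 23.2, 13.7, 1.34, 43.3 and 6.05 in controls and 524, 271, 243, 419 and 386 at 24 hours (4.88 ± 0.86, adjusted p = 7.24e-05), and its difference from 6 hours did not pass (-0.56 ± 0.86, adjusted p = 0.689). Of the control arrays of Calhm5, Steap1 and Zfp365, 1 each was above background, and with 16 in place of 1 added before the logarithm their changes were 3.24, 2.94 and 3.6. The other probe set of Zfp365 changed by 0.94. Against 6 hours, 2493 genes were higher (13.7%) and 1831 lower (10.1%). The largest fitted rise of this kind with no overlap was that of Adtrp, which read 6.67, 90.4, 34.6, 41.5 and 12.4 in controls, 3.18, 1.68, 0.994, 3.71 and 2.72 at 6 hours and 181, 119.8, 235, 200.5 and 208 at 24 hours. Every 6-hour array of Adtrp was below background and below every control array, and every 24-hour array was above both. Sfrp2, a secreted WNT modulator, was also lower at 6 hours, where its arrays overlapped those of the controls, with 24-hour signals of 944, 685, 677, 951 and 992 (3.61 ± 0.57, adjusted p = 1.63e-05 against control, 5.38 ± 0.57, adjusted p = 9.02e-08 against 6 hours). Of the 2861 genes that rose against control, 1281 were also above and 205 below 6 hours, and of the 2513 that fell, 773 were also below and 115 above. In 93 genes a fall at 6 hours and a rise at 24 hours were both called against the shared non-irradiated arrays, and in 54 the reverse was called.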

How the data were processed

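Bone marrow cells labelled as endothelial were measured on 20 Affymetrix mouse arrays, 5 in each of 4 groups. The deposited values are linear signal intensities that the authors made with Affymetrix Expression Console and Transcriptome Analysis Console, per the submitters' processing notes. The summarization algorithm and software versions are not given in the sources used here. In the deposited table the mean of each array, after trimming 2% of probe sets at each end, was 500.

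The platform annotation gave 34945 of 45101 probe sets 1 gene symbol, 932 several and 9160 none (64 were controls). The probe set with the highest mean log2 value stood for each of 18193 genes. Values were log2(signal + 1), so the fitted change of a gene with a group near background depends on the value added and is no resolved fold. All groups entered 1 limma model (version 3.58.1, R 4.3.3, lmFit and eBayes with an intensity trend), with Benjamini-Hochberg adjustment over all genes and a threshold of 0.05. Single array values were compared by exact permutation over 252 splits (scipy 1.17.1, python 3.11.15, two-sided). Background was the 95th percentile of 27 probe sets for absent bacterial genes (17.5 to 51.5 by array). A group at or below it in all 5 arrays gave only a bound. For such a gene, "at least N-fold" sets the mean of the other group against that background. The scripts were tested on simulated data.

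Genes were named as the 10 largest rises and falls without overlap, the 6 largest each way against 6 hours, up to 5 called members of each list, and Cdkn1a, Mdm2, Mki67, Cdh5, Pecam1, Ptprc, Klf1, Kitl, Cxcl12, Acta2 and Ifit1. Predicted and clone symbols were left out, and other genes named are list members chosen after their values were seen. The members and lists were chosen with earlier results of these data known. Alternatives changed the scaling, the filter on dim genes, the probe set rule, the pseudocount, the variance prior, array weights, the samples fitted and the replicate block, and left out each array in turn. The number of arrays limits the precision. Arrays from 14 days entered the model and are not otherwise described.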

Additional observations from a re-analysis of the deposited data

Results flagged for a closer look

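The arrays of a group were compared with each other for every gene named here, and an array was singled out when its gap to the nearest of the other 4, divided by the range of all 5, exceeded Dixon's critical value for 95%. Chance alone singles out about 1 group in 20. With 215 genes compared in each of 2 groups, chance alone gives a list of about the length below. Among the non-irradiated arrays, replicate 4 was the lowest for Fgf23 (4.35), Il7 (217.6) and Psmb8 (669) and the highest for Cxcl14 (6000.0), Il6 (219) and Pln (898.5). Non-irradiated replicate 2 was the lowest for Actg1 (6791), Fos (10629), Irgm2 (592) and Tal1 (1410.0). Non-irradiated replicate 1 was the lowest for Btnl10 (1634) and Rrm2 (12023) and the highest for Igf1 (2076). Non-irradiated replicate 3 was the highest for Cnn2 (3649) and the lowest for Tgfb1 (879). Among the 24-hour arrays, replicate 1 was the highest for Hspa1a (690.2), Lepr (9009), Myb (2467) and Ptprc (4503), and replicate 3 was the lowest for Bard1 (26.8) and the highest for Lif (539.9). Replicate 5 of that group was the lowest for Myocd (29.4) and Ptprv (150.1), and replicate 4 was the lowest for Kel (1.01), a signal below background.

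Some genes were called in opposite directions at 6 and at 24 hours, in comparisons that share the non-irradiated arrays. Their 24-hour level was then tested against the 6-hour level itself in the same limma model. Genes that had risen at 6 hours and fallen at 24 hours were the stress response genes Atf3, Atf4 and Ppp1r15a, with log2 differences of -2.12, -0.69 and -1.21 from 6 to 24 hours. The inflammatory genes Ccl3, Nfkbiz and Tnfaip3 took that course with differences of -1.86, -1.33 and -1.94, as did the collagen gene Col1a2 (-0.55) and the survival gene Mcl1 (-0.85). The 24-hour falls of Atf4, Col1a2, Nfkbiz and Mcl1 turned upward after centring on array medians. Genes that had fallen at 6 hours and risen at 24 hours were the neutrophil granule genes Ctsg (1.15), Lcn2 (0.84), Mmp9 (1.23) and Prtn3 (1.22) and Ms4a3 (1.48), a membrane protein of granulocyte precursors. Sfrp2 (5.38) and Adtrp (5.81) took that course too, and the fitted difference of Adtrp is no fold, since every 6-hour array was below background.

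Probe sets outside the gene table held changes as well. Of 932 probe sets with several gene symbols, 114 rose and 234 fell at 24 hours (37.3% called). Of 9160 probe sets unnamed here, 269 rose and 2045 fell (25.3% called).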

How the results depend on the processing

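The direction balance depended on the scaling. Rises made up 53.2% of the calls against non-irradiated arrays as deposited, 60.8% after quantile normalization, 81.3% after centring each array on its median (4950 rose, 1139 fell) and 46.6% with a gene's probe sets averaged. Against 6 hours, 1635 genes were higher when only the 2 groups compared were fitted. Calls in opposite directions numbered 3 after quantile normalization and 9 with the mean of probe sets. The other settings gave 2862 rises and 2238 falls with dim genes left out (10916 genes tested), 2922 and 2653 with a pseudocount of 16, 2730 and 2448 without the intensity trend, 3663 and 3291 with array weights, and 3650 and 3215 with only the 2 groups. Leaving out each array in turn gave 4841 to 4999 calls (2598 to 2708 rises, 2194 to 2329 falls) and, against 6 hours, 3658 to 4436 (2141 to 2587 higher, 1517 to 1890 lower). The replicate number as a block gave 5282 calls (2834 rises, 2448 falls) and removed the call of 1 named gene, Lyz2. Deviations of arrays with the same number correlated between -0.055 and 0.014 (non-irradiated with 24 hours) and between 0.003 and 0.049 (6 with 24 hours), and the own number was highest in 1 of 5 and 3 of 5. With 5 arrays a group this check cannot exclude a pairing by number. Of 195 named genes called, 157 kept direction and call under every alternative that held the gene. The setting that left out dim genes did not hold all of them. Directions turned after centring for Actb (0.042), Atf4 (0.032), Camp (0.13), Col1a1 (0.0043), Col1a2 (0.14), Cxcl12 (0.11), Fos (0.22), Gypc (0.014), Kdr (0.35), Lyz2 (0.16), Mcl1 (0.17), Nfkbiz (0.061), Ngp (0.096) and Ptprc (0.053). They turned after quantile normalization for Actb (0.15), Col1a1 (0.0599), Col1a2 (0.23), Cxcl12 (0.19), Fos (0.065) and Ngp (0.095), and with the mean of probe sets for Atf4 (0.17), Cxcl12 (0.18), Ifnar1 (-0.25), Myocd (0.27), Tgfb1 (-0.33) and Trp53bp1 (-0.961). Among genes that were not called, leaving out 1 array turned Ifnar1 (24-hour replicate 4, range -0.00528 to 0.0991), Ifnb1 (24-hour replicate 1, -0.0157 to 0.594), Il6 (24-hour replicate 3, -0.00487 to 0.322) and Kdr (24-hour replicate 1 or non-irradiated replicate 3, -0.0809 to 0.0555). The cause was not tested. With 5 arrays a group, and signals near background for some genes, small changes are not resolved.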

Other observations

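Of 22 measured genes of vessel tone, coagulation and fibrinolysis, 13 rose and none fell at 24 hours (median 1.01, where 15.7% of all genes rose), with 3 (F3, Agt and Anxa2) above and 7 below 6 hours. F3, the tissue factor that starts coagulation, showed the largest change of the list (2.55 ± 0.84, adjusted p = 0.0229), and its call was lost without non-irradiated replicate 4 or 5 (log2 change 2.13 and 2.14). Agt, the precursor of angiotensin, read 531, 720, 608, 493 and 480.2 in controls and 2273, 2528, 2574, 2304 and 2232 at 24 hours, with no overlap (2.08 ± 0.16, adjusted p = 8.33e-11). Plau, the urokinase that activates plasminogen (1.44 ± 0.31), and Anxa2, its surface cofactor (1.74 ± 0.11), rose as well. Of 24 semaphorins, plexins and neuropilins, guidance receptors and ligands of vessels and nerves, 14 rose and 1 fell (Sema6b, -0.62 ± 0.22). The call of Sema6b was lost after quantile normalization or centring and without 24-hour replicate 1, 3 or 5 or non-irradiated replicate 2 or 4 (log2 changes from -0.596 to -0.504). The largest rises were those of the receptor Plxnb2 (1.91 ± 0.22) and the ligand Sema3f (1.86 ± 0.60). The call of Sema3f was lost without 24-hour replicate 5 or non-irradiated replicate 2 or 5 (log2 change 1.6, 1.46 and 1.39) and also when its probe sets were averaged. Of 18 circadian clock genes 9 rose and none fell, among them the output factor Dbp (1.04 ± 0.23, adjusted p = 0.000759) and the core repressor Per2 (0.91 ± 0.21, adjusted p = 0.00151). The hour of the day at which each group was taken is not given in the labels, so its part was not tested.

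Of 14 megakaryocyte and platelet markers, 7 rose (11 after centring) and 1 fell, with 10 below 6 hours and none above. Itga2b, the platelet integrin chain CD41, read 521, 452, 350, 334 and 382 in controls, 2189, 1598, 1710, 1356 and 1190 at 6 hours and 643, 612, 606, 583 and 724 at 24 hours. The 24-hour level of Itga2b was higher than control (0.65 ± 0.19, adjusted p = 0.00998) and lower than at 6 hours (-1.31 ± 0.19, adjusted p = 9.57e-06). The member that fell was Nfe2, a factor shared with red cell precursors (-0.87 ± 0.29, adjusted p = 0.0223), and its call was lost after centring, with no intensity trend and without 24-hour replicate 2 or non-irradiated replicate 3, 4 or 5 (log2 change -0.776, -0.79, -0.801 and -0.788). Of 21 end joining and damage signalling genes 10 fell and none rose, the largest fall being that of Polq, the polymerase of an error-prone repair route (-3.30 ± 0.32, adjusted p = 6.44e-09). After centring 4 of them fell (Chek1, Mre11a, Polq and Xrcc6, the last losing its call with averaged probe sets) and 1 rose (Trp53bp1, whose change was downward with its probe sets averaged). Of 20 genes of the BCL2 family, caspases and other death effectors 7 rose (15 after centring) and 2 fell. Mlkl, the effector of necroptosis, rose (1.41 ± 0.33, adjusted p = 0.00151), and Bcl2l11, the death promoter BIM, fell (-1.01 ± 0.15, adjusted p = 8.1e-06). The other that fell was Mcl1, a survival protein of the family (-0.21 ± 0.064, adjusted p = 0.0126), which turned direction after centring and lost its call after quantile normalization and with no intensity trend.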
